A study of Mus musculus with 20 samples.

Results

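The 10 genes described here encode intermediate filament proteins of neural cells and of the nucleus: Nes (nestin), Vim (vimentin), Synm (synemin), Ina (alpha-internexin), the neurofilament genes Nefl, Nefm and Nefh (light, medium and heavy chains), and the lamin genes Lmna, Lmnb1 and Lmnb2. They were taken by gene symbol from an RNA-seq table of 36724 genes, in which all 10 were found. The table covers 20 libraries of mouse neurospheres, floating clusters that neural stem and progenitor cells form in culture, from C57BL/6 donors of 8 to 12 weeks that were wild type or knockout for Egfl7, a gene for a secreted EGF-like protein. The sources used here do not say which stretch of Egfl7 was deleted. All cultures were grown in serum-free medium with EGF and FGF and were not treated. The SVZ group came from the subventricular zone, sphere round 1, harvested on culture day 3 (3 wild-type and 3 knockout libraries). The group called HC1 came from the hippocampus, sphere round 1, day 5, with 3 and 3. The group called HC2 came from the hippocampus, sphere round 2, day 5, with 4 and 4. Donors were male except the 3 HC1 wild types, which were female, so genotype and donor sex cannot be told apart in HC1. Region and culture day cannot be told apart between SVZ and HC1.

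Intermediate filaments are rope-like polymers whose make-up depends on the cell type. Nestin marks dividing neural stem and progenitor cells and joins filaments together with vimentin, which builds filaments by itself, while synemin is a large partner of vimentin and desmin. Neurons replace this set with alpha-internexin and the neurofilament chains, which fill the axon. Lamins line the inner nuclear membrane, where B-type lamins (Lmnb1, Lmnb2) stay bound to the membrane and A-type lamins (Lmna) stiffen the nucleus and generally rise with differentiation.

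Promoters are shown for 3 genes whose levels behaved differently in the HC2 libraries: Nes and Lmnb2, which followed the cell cycle genes there, and Vim, for which the test found no such slope. Each line gives the 250 bases before the annotated start, 5′ to 3′ on the gene's strand, from RefSeq on GRCm38.p6, at chr3:87970843-87971092 (plus strand) for Nes, chr10:80918246-80918495 (minus strand) for Lmnb2, at the outermost of its 2 starts, and chr2:13574061-13574310 (plus strand) for Vim. Capitals mark 5 short motifs, searched on both strands. The letters of the GC box were GGGCGG and those of the TATA box were TATAAA. The CCAAT box was searched by the letters in its name and the E-box by the letters CACGTG. The last motif, found in the cell cycle homology region of some cell cycle promoters, was searched as TTTGAA.
Nes: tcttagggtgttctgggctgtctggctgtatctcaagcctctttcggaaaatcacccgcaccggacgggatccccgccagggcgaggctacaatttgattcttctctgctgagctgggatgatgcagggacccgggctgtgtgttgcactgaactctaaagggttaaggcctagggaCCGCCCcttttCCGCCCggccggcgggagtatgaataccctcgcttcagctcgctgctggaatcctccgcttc
Lmnb2: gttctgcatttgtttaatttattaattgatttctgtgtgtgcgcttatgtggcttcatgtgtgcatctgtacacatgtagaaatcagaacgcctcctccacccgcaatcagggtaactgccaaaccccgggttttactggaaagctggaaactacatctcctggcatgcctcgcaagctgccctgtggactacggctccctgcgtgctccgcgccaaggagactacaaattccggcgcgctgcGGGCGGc
Vim: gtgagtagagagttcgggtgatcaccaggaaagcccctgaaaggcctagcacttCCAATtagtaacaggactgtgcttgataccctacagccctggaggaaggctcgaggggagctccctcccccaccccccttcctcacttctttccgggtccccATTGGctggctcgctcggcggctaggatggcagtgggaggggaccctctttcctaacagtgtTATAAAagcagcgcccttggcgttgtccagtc
The Nes window held 2 GC boxes, starting 73 and 62 bases before the start, and no other of the 5 motifs. The Lmnb2 window held 1 GC box, 7 bases before the start. The Vim window held 2 CCAAT boxes, at 196 and 94 bases, and a TATA box at 32 bases before the start. GC boxes also lay before starts of genes whose slope was not called. The Ina window held 2, at 111 and 12 bases, and a Lmna window held 1, at 52 bases. The other Lmna window and the Synm window held none, nor did the window at the other start of Lmnb2. Both Lmna windows lie inside the span of the gene, before inner starts, and not at its outermost 5′ end. A link between these motifs and the slope was not tested. Over all 32851 windows of this length in the table, 32.7% held the GC box, 33.8% the CCAAT box, 12.4% the TATA box, 6.02% the E-box and 16.0% the cell cycle motif. That motif was in none of these 3 windows, which says only that these letters are not in them. Sequence for the starts of Nefl, Nefm, Nefh and Lmnb1, and for the outermost 5′ end of Lmna, was not used here.

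Of the 10 genes, 9 reached 0.5 RPKM (reads scaled to gene length and library size) in at least 3 libraries and were tested. Nefh did not. Vim was the highest of the 10 in every library, at 918 to 2329 RPKM. Nes ranged from 59.1 to 563, Lmnb1 from 32.8 to 340.5, Lmnb2 from 12.9 to 36.0 and Lmna from 3.90 to 20.7 RPKM. Ina ranged from 3.85 to 11.9, Nefm from 0.552 to 11.6, Nefl from 0.168 to 4.25 and Synm from 0.363 to 1.83 RPKM. On this per-length scale Vim, Nes, Lmnb1 and Lmnb2 lay above the axonal filament genes in every library, Lmnb2 narrowly so, since its lowest value of 12.9 RPKM is near the highest of Ina, 11.9. Synm was low, with a median of 1.02 RPKM against 2.32 for Nefm and 6.93 for Ina. Nefl and Nefm differed most between libraries, 25.3-fold and 21.0-fold from lowest to highest, and Vim least, 2.54-fold.

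**Figure D1:**
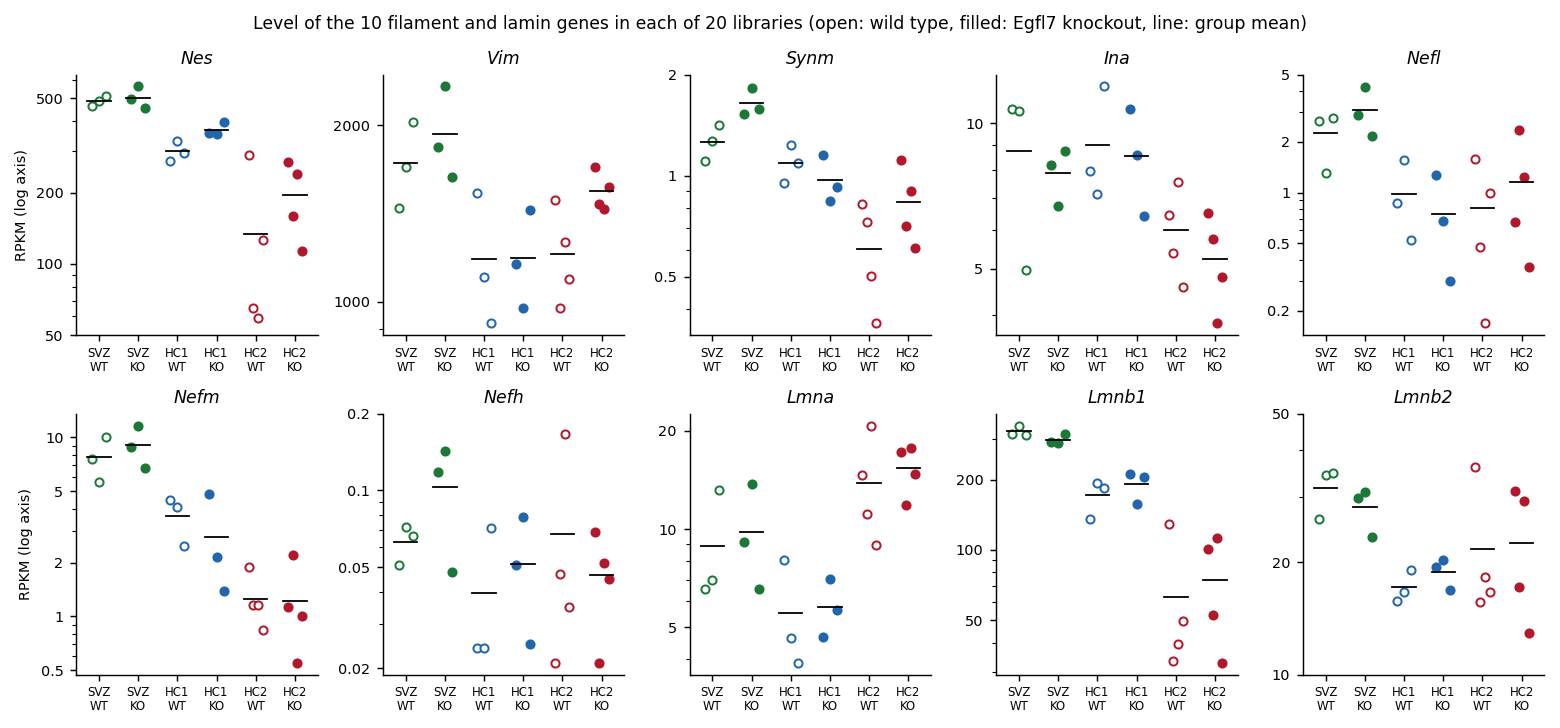
RPKM of each of the 10 genes (log axis, its own range in each panel) in 20 libraries grouped by region, sphere round and genotype; open circles are wild type, filled circles Egfl7 knockout, and lines are group means. Lmnb1 falls from 286 to 340.5 in SVZ to 135 to 212 in HC1 and 32.8 to 129 in HC2 with no overlap, while Lmna is highest in HC2.

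Neurofilament genes were low but counted. Read numbers worked out from the steps of the RPKM values were 25 to 380 per library for Nefm, 6 to 111 for Nefl and 44 to 163 for Synm. Nefh rested on 1 to 16 reads per library, at 0.021 to 0.167 RPKM, and its highest value, HC2 wild type 5, came from 16 reads. The heavy chain is the last of the neurofilament chains to appear as axons mature. Its span overlaps that of Ap1b1 on the opposite strand, whose median was 40.0 RPKM, and the sources used here do not say whether counting used strand. No difference was tested for it.

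The genes lie as follows on GRCm38. Nes and Lmna are on chromosome 3 (bases 87971093 to 87980451, plus strand, and 88481148 to 88509932, minus strand), and Vim is on chromosome 2 (13574311 to 13582826, plus). Synm is on chromosome 7 (67730161 to 67759742, minus), Ina on chromosome 19 (47014698 to 47024358, plus), Lmnb1 on chromosome 18 (56707813 to 56753424, plus) and Lmnb2 on chromosome 10 (80901363 to 80918245, minus). Nefh is on chromosome 11 (4938754 to 4948064, minus). Nefl (68083884 to 68087745, plus) and Nefm (68119545 to 68125004, minus) are neighbours on chromosome 14, with their 3′ ends facing each other across 31.8 kb. The start of Ina overlaps Nt5c2 on the opposite strand (median 20.9 RPKM against 6.93 for Ina), and Nefm overlaps A230070E04Rik (median 0.624 against 2.32), so reads of these pairs cannot be told apart if strand was not used.

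Some libraries stood apart. Egfl7 was 0 in all HC1 and HC2 knockouts and present in all their wild types. However, it was 0 in the library labelled SVZ wild type 3, and 2.86 RPKM from 30 reads in that labelled SVZ knockout 2. HC1 wild type 1 had a Gfap level of 149 RPKM, against 2.31 to 10.4 in the other HC1 libraries, and the lowest cell cycle level of HC1. Sphere round 1 libraries had 37.4% to 44.5% of the reads of the deepest library, and the HC2 libraries 56.9% to 100%. RNA of neural stem and progenitor markers was present throughout, with the summed RPKM of 10 such markers at 5320 to 12575. Most of that sum was 1 gene, Fabp7, at 3726 to 11405 RPKM. Of 10 endothelial, 10 pericyte and fibroblast and 10 microglia markers, 2, 3 and 2 were high enough to be tested. Mouse numbers that recur between groups were not treated as pairs, and no source says whether the libraries of a group came from separate cultures beyond the mouse numbers in their titles.

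The first comparison set SVZ against HC1 spheres, the mean of both genotypes in each. Neurofilament genes were higher in SVZ spheres: Nefm averaged 8.40 ± 2.22 RPKM against 3.22 ± 1.41 (SD, n = 6 each) and Nefl 2.67 ± 0.967 against 0.865 ± 0.470. Vim, Synm, Lmna and Lmnb2 were also called higher, so that 6 of the 9 tested genes passed and all 6 were higher in SVZ. Over all genes 34.1% were called, 14.5% higher and 19.6% lower. The median log2 difference was 0.60 over the 6 tested filament genes and 0.69 over the 3 lamins, against -0.03 over all genes. Tests were two-sided limma tests on log2(RPKM + 1) over 16403 genes with Benjamini-Hochberg adjustment, called at an adjusted p under 0.05, and differences below are on that scale, which understates changes of low genes.

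Among the stem-cell filaments, Vim measured 1444, 1696 and 2025 RPKM in the SVZ wild types and 1832, 2329 and 1629 in the SVZ knockouts. In HC1 it measured 1529.8, 1101 and 918 in the wild types and 1159, 977 and 1431 in the knockouts. The groups overlapped only through HC1 wild type 1, which lay above the lowest SVZ library. The log2 difference was 0.63 (SE 0.15, adjusted p = 0.00447). Nes measured 463, 489 and 511 RPKM in the SVZ wild types and 494, 563 and 453 in the SVZ knockouts. In HC1 it measured 273, 331 and 294 in the wild types and 357, 352 and 397 in the knockouts. Every SVZ library was above every HC1 library, yet the difference of 0.57 (SE 0.30) was not called (adjusted p = 0.147), with an interval of -0.06 to 1.21. The fit shares its spread with HC2, where Nes varied widely. When only the SVZ and HC1 groups were fitted, Nes and Lmnb1 were called too, at adjusted p = 0.000215 and 0.000224. Both were also called with array weights (0.0169 and 0.00240), and Lmnb1 after rescaling each library by its median ratio to the others (0.0379). Groups that did not overlap were found for 4 of the 9 genes (Nes, Nefm, Lmnb1 and Lmnb2), all higher in SVZ, and for 23.6% of all genes. Synm was low in both, at 1.11 to 1.83 RPKM in SVZ and 0.841 to 1.23 in HC1, with a difference of 0.27 (SE 0.10, adjusted p = 0.0392).

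Nefm measured 7.61, 5.61 and 10.1 RPKM in the SVZ wild types and 8.79, 11.6 and 6.70 in the SVZ knockouts. In HC1 it measured 4.45, 4.07 and 2.46 in the wild types and 4.81, 2.15 and 1.38 in the knockouts. The lowest SVZ library was above the highest HC1 library. The log2 difference was 1.19 (SE 0.23, adjusted p = 0.00134), the largest among the 9 genes. Nefl measured 2.66, 1.30 and 2.78 RPKM in the SVZ wild types and 2.88, 4.25 and 2.17 in the SVZ knockouts. In HC1 it measured 0.862, 1.55 and 0.521 in the wild types and 1.27, 0.683 and 0.301 in the knockouts. HC1 wild type 2 lay above the lowest SVZ library and the other HC1 libraries lay below all of SVZ. Its difference was 0.97 (SE 0.25, adjusted p = 0.00737). Ina, which neurons make before the neurofilament chains, averaged 8.32 ± 2.22 RPKM in SVZ and 8.78 ± 2.12 in HC1 (SD, n = 6 each), a difference of -0.08 (interval -0.47 to 0.31).

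Most neuronal markers went the other way from the neurofilament genes. Of 13 neuronal markers, 8 were lower in SVZ and 0 higher, with a summed level of 506 to 651 RPKM against 676 to 880 in HC1. Mapt, the axonal tau gene, was lower by 1.77 on the log2 scale (-1.77, SE 0.23, adjusted p = 0.000103), and Nsg2 by -1.43. Gap43 was the 1 of the 13 with a positive difference (0.80, SE 0.44), which was not called (adjusted p = 0.168). In bulk RNA, fewer cells of a type and less RNA per cell cannot be told apart. Cell cycle genes were higher in SVZ: 11 of 38 were called, none lower, and their summed level was 4267 to 4801 RPKM against 1147 to 2870. Of 10 astrocyte markers, 4 were lower in SVZ and 0 higher, with Apoe at -3.42 and S100b at -2.52 and summed levels of 715 to 1572 RPKM against 2492 to 6141. Of 10 oligodendrocyte lineage markers, 3 were lower and 0 higher, and of 10 stem and progenitor markers, 2 were lower and 0 higher, Slc1a3 at -0.84 and Fabp7 at -0.62. Of 2 tested microglia markers, Itgam was higher (0.45). Endothelial markers summed to 3.79 to 8.23 RPKM against 1.86 to 2.84, with Flt1 called higher out of 2 tested. Pericyte and fibroblast markers summed to 11.1 to 70.1 RPKM against 5.89 to 21.9, with 0 of 3 tested called. The part of these markers in the members' differences was not tested.

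Among the lamins, Lmnb1 measured 314, 340.5 and 311 RPKM in the SVZ wild types and 289, 286 and 313 in the SVZ knockouts. In HC1 it measured 135, 194 and 184 in the wild types and 212, 157 and 205 in the knockouts. The groups did not overlap, and the difference of 0.78 (SE 0.30) narrowly missed the threshold (adjusted p = 0.0569). Lmnb2 averaged 29.9 ± 4.47 RPKM in SVZ and 18.01 ± 1.85 in HC1 (SD, n = 6 each), with no overlap and a difference of 0.69 (SE 0.21, adjusted p = 0.0191). Lmna measured 6.54, 6.96 and 13.2 RPKM in the SVZ wild types and 9.12, 13.8 and 6.54 in the SVZ knockouts, against 3.90 to 8.07 in HC1, so the groups overlapped. Its difference was 0.61 (SE 0.23, adjusted p = 0.0457).

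The 2 SVZ libraries whose Egfl7 went against their label were those with the highest Vim, Nefm and Lmna and the lowest Ina of the 6. Without both, Vim and Nefm were the 2 genes still called, and the differences were 0.81 for Nefl (adjusted p = 0.0558), 0.62 for Lmnb2 (0.0919), 0.34 for Lmna (0.285) and 0.22 for Synm (0.166). Synm lost its call without any 1 of 9 of the 12 libraries and kept it without SVZ wild type 1, HC1 wild type 2 or HC1 knockout 1, with adjusted p between 0.0388 and 0.0901. It also lost it with a pseudocount of 0.1 RPKM (adjusted p = 0.0831) and with no filter on low values (0.0607). Lmna lost its call without any 1 of 7 libraries and kept it without SVZ wild type 1, SVZ wild type 2, SVZ knockout 3, HC1 wild type 1 or HC1 knockout 2, with adjusted p between 0.0240 and 0.131, and lost it with no filter (0.0753). Between the knockout groups alone, all of male donors, 3 genes were called (Vim, Nefl and Nefm).

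**Figure D2:**
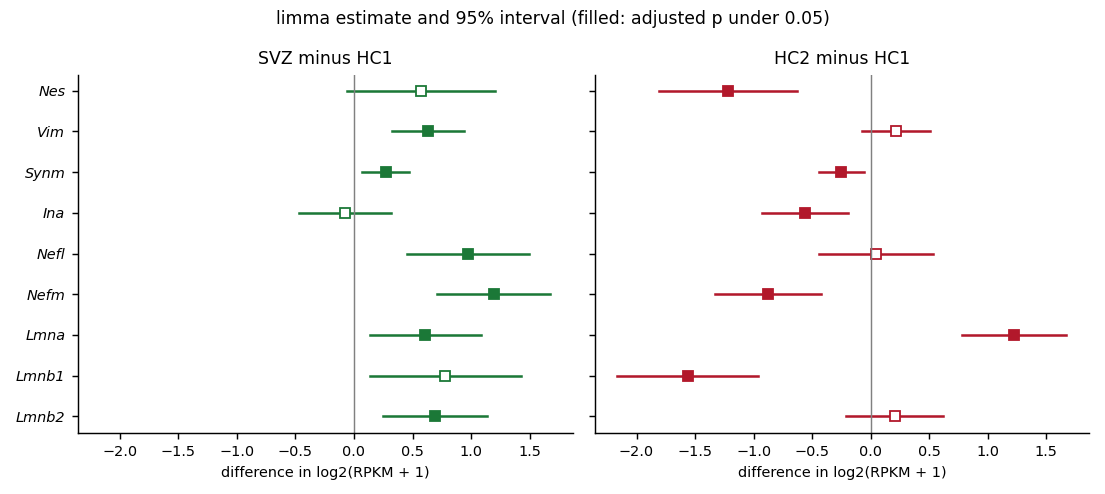
Difference in log2(RPKM + 1) with its 95% interval for the 9 tested genes, SVZ minus HC1 on the left and HC2 minus HC1 on the right; filled squares passed an adjusted p of 0.05. All genes but Ina lie above 0 on the left, from 0.27 to 1.19, while on the right Lmna (1.22) and Lmnb1 (-1.56) lie on opposite sides.

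The second comparison set the hippocampal sphere rounds against each other at the same culture day, HC2 minus HC1. It shares the HC1 libraries with the first. The HC1 wild-type donors were female and all HC2 donors male, so donor sex differs in part with the round, and its part was not tested. In HC2, Lmnb1 was lower, at 68.7 ± 38.9 RPKM (SD, n = 8) against 181 ± 29.5 (SD, n = 6), and Lmna was higher, at 14.6 ± 3.90 against 5.65 ± 1.59. Nes, Nefm, Ina and Synm were lower too, so 6 of 9 genes were called, 5 lower and 1 higher. Over all genes 54.3% were called, 31.5% lower and 22.8% higher. The median log2 difference was -0.40 over the 6 filament genes and 0.20 over the 3 lamins, against -0.06 over all genes.

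Lmnb1 measured 129, 33.3, 39.6 and 49.5 RPKM in HC2 wild types 2, 3, 5 and 6 and 101, 52.3, 112 and 32.8 in HC2 knockouts 1, 4, 7 and 8. Each was below the lowest HC1 library, at 135. The log2 difference was -1.56 (SE 0.28, adjusted p = 0.000191). Lmna measured 14.6, 11.1, 20.7 and 8.91 RPKM in the HC2 wild types and 17.2, 11.9, 17.7 and 14.7 in the knockouts, in the same order. Each was above the highest HC1 library, at 8.07, and the difference was 1.22 (SE 0.21, adjusted p = 0.000111). These are the 2 of 9 genes whose groups did not overlap, against 25.4% of all genes. Lmnb2 averaged 22.1 ± 8.62 RPKM in HC2 and differed by 0.20, which was not called (interval -0.21 to 0.62).

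The balance of the lamin genes followed. Lmnb1 was 16.8 to 47.3 times Lmna in HC1 (median 39.1), 20.8 to 48.9 times in SVZ (median 39.8) and 1.91 to 8.80 times in HC2 (median 4.98), per length. No HC2 library reached the lowest of the other 12. The ratio of Lmnb1 to Lmnb2 was 2.12 to 3.85 in HC2 against 7.74 to 12.2 in HC1. So Lmnb1 was the most abundant lamin RNA in every library, but in HC2 by a smaller factor.

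**Figure D3:**
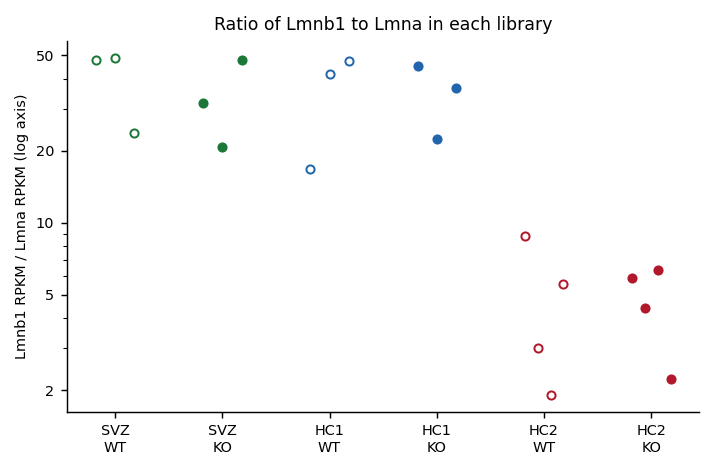
Ratio of Lmnb1 RPKM to Lmna RPKM in each of 20 libraries (log axis), open circles wild type and filled circles Egfl7 knockout. The 8 HC2 libraries lie between 1.91 and 8.80, below the other 12 at 16.8 to 48.9.

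Nes measured 287, 65.2, 59.1 and 126 RPKM in HC2 wild types 2, 3, 5 and 6 and 268, 159.9, 240.3 and 113 in HC2 knockouts 1, 4, 7 and 8. Of these, HC2 wild type 2 alone reached into the HC1 range of 273 to 397, and wild types 3 and 5 were the lowest. The difference was -1.22 (SE 0.28, adjusted p = 0.00149). Vim measured 1493, 974, 1262 and 1092 RPKM in the HC2 wild types and 1699.5, 1466, 1439 and 1567 in the knockouts, overlapping HC1. Its difference of 0.22 was not called (interval -0.07 to 0.50). The ratio of Vim to Nes was accordingly 5.20 to 21.4 in HC2 against 2.77 to 5.601 in HC1. Synm, at 0.363 to 1.11 RPKM in HC2, differed by -0.25 (SE 0.09, adjusted p = 0.0264).

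Nefm measured 1.88, 1.16, 1.16 and 0.836 RPKM in the HC2 wild types and 1.13, 2.19, 0.552 and 1.00 in the knockouts. Most HC2 libraries were below HC1, with HC2 wild type 2 and knockout 4 inside its range. The difference was -0.88 (SE 0.21, adjusted p = 0.00232). Nefl measured 1.59, 0.476, 0.168 and 0.996 RPKM in the HC2 wild types and 0.667, 2.34, 1.24 and 0.362 in the knockouts, a range that spans all of HC1. Its difference was 0.04 (interval -0.44 to 0.53). The ratio of Nefm to Nefl was 0.445 to 6.88 in HC2 (median 1.44), a range that contains that of HC1, 2.62 to 5.16 (median 4.19). It was not tested. Ina averaged 5.61 ± 1.21 RPKM in HC2 and was lower by -0.56 (SE 0.17, adjusted p = 0.0122).

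Other markers moved with the sphere round. Of 38 cell cycle genes, 29 were lower in HC2 and 0 higher, with a summed level of 153 to 2515 RPKM against 1147 to 2870 in HC1. Of 10 astrocyte markers, 3 were higher (Apoe, Slc1a2 and S100b), with a sum of 2670 to 19649 RPKM against 2492 to 6141. Apoe had the highest means of this list in both rounds. They were 2068 and 1247 RPKM in the HC1 wild types and knockouts, and 9916 and 6132 in those of HC2. By direction, 9 of the 10 astrocyte markers were higher in HC2, with a median log2 difference of 0.70. Stem and progenitor markers were mixed: of 10, 4 were higher, among them Sox2 (1.32), Hes1 (0.91) and Egfr (0.83), and 2 lower, Sox9 (-0.86) and Fabp7 (-0.76). By direction, 7 of the 10 were higher in HC2, with a median log2 difference of 0.25. The summed level of the 10 was lower in each HC2 library, at 5320 to 9908 RPKM against 10567 to 12575. Most of that sum was Fabp7. Its group means were 10217 and 10263 RPKM in the HC1 wild types and knockouts, and 6831 and 5642 in those of HC2. Of 10 oligodendrocyte lineage markers, 5 were lower, among them Sox10 (-2.31), Mbp (-1.55) and Pdgfra (-0.84), and 2 higher, Olig1 (1.37) and Olig2 (0.44), with sums of 927 to 1573 RPKM against 632 to 1211. Of 13 neuronal markers, 6 were lower and 1 higher, with sums of 555 to 823 against 676 to 880. Pericyte and fibroblast markers summed to 1.20 to 5.34 RPKM against 5.89 to 21.9, with Acta2 and Tagln lower. Microglia markers summed to 1.63 to 2.92 against 2.94 to 5.83, with both tested markers, Itgam and Cd68, lower. Of 2 tested endothelial markers, Kdr was lower (-0.50). Their part in the members' differences was not tested. Each HC2 library was also deeper than each HC1 library, whose part was not tested either.

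Synm lost its call in this comparison without HC1 wild type 2 (adjusted p = 0.0652), HC1 knockout 1 (0.0715), HC2 wild type 6 (0.0564) or HC2 knockout 8 (0.0533). The median ratio of a library to the others differed by -0.12 on the log2 scale between HC2 and HC1. Dividing each library by its ratio therefore raised HC2 against HC1. This rescaling ended the call of Synm (-0.20, adjusted p = 0.0644) and gave one to Vim (0.34, adjusted p = 0.0355). Between the knockout groups alone, all of male donors, Lmna and Lmnb1 were called. Nes then differed by -0.99 (adjusted p = 0.0581), Nefm by -0.72 (0.0717), Ina by -0.61 (0.0592) and Synm by -0.11 (0.519), none of them called.

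Genes that work with these filaments were read from lists of their partners. Of 7 linkers that tie intermediate filaments to other structures, 3 were high enough to be tested. All 3 were higher in HC2 than in HC1: Plec, the plectin gene, by 1.30 (SE 0.37, adjusted p = 0.00716), Macf1 by 1.17 and Dst by 1.12. None of the 3 was called between SVZ and HC1. Of 16 nuclear envelope genes, 15 were tested, with 9 higher and 4 lower in HC2. Syne1, whose product links the nucleus to the cytoskeleton, was higher by 1.35 (SE 0.25, adjusted p = 0.000191), and Tmem201 by 0.85. Banf1, which bridges chromatin and the envelope, was lower (-1.67, SE 0.20, adjusted p = 2.27e-06), as was Emd, the gene of the lamin-binding protein emerin (-0.94). In SVZ against HC1, 5 of the 15 were higher and 1 lower, with Emd at 0.73 and Syne1 at -0.99. Of 5 enzymes that process prelamin or related proteins, 3 were lower in HC2 (Fntb -0.84, Zmpste24 -0.48 and Icmt -0.29) and Rce1 was higher (0.52).

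Of 16 other intermediate filament genes, 6 were tested. Iffo2 was higher in SVZ than in HC1 (1.36, SE 0.24, adjusted p = 0.000721) and none was called between the hippocampal rounds. Gfap, the astrocyte filament that radial stem cells also make, ran from 0.204 to 6.42 RPKM in SVZ, 2.31 to 149 in HC1 and 1.33 to 536 in HC2. With this spread its differences of -1.90 between SVZ and HC1 and 1.95 between HC2 and HC1 were not called (adjusted p = 0.245 and 0.165).

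The third question was how the members varied inside HC2, where libraries of the same label differed widely. The log2 SD of Nes was 1.04 in the HC2 wild types and 0.57 in the knockouts, larger than that of 96.0% and 87.5% of all tested genes. That of Lmnb1 was 0.86 and 0.82, larger than 94.0% and 94.3%. In SVZ the SD of both genes was 0.07 to 0.16. The members were set against the mean log2 level of the 38 cell cycle genes, a list that holds no member. This mean was 6.46 to 6.66 in SVZ, 4.49 to 5.88 in HC1 and 1.68 to 5.70 in HC2. It was known from earlier results that HC2 libraries differ in this level, so the slope describes these 8 libraries.

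Nes, Lmnb1 and Lmnb2 followed the cell cycle mean in HC2, and the other 6 tested members were not called. So 3 of 9 were called, all with a positive slope, against 24.4% of all genes, with 16% positive and 8.35% negative. Per log2 unit of the cell cycle mean, Nes changed by 0.56 (SE 0.05, adjusted p = 0.000315, limma with genotype in the fit, n = 8). Lmnb1 changed by 0.54 (SE 0.07, adjusted p = 0.00224) and Lmnb2 by 0.34 (SE 0.07, adjusted p = 0.0106). In order of rising cell cycle mean (wild types 5 and 3, knockout 8, wild type 6, knockouts 4, 1 and 7, wild type 2), Nes read 59.1, 65.2, 113, 126, 159.9, 268, 240.3 and 287 RPKM. In the same order Lmnb2 read 18.2, 15.7, 12.9, 16.7, 17.1, 31.1, 29.2 and 36.0 RPKM. Nes climbed along the range with a single step down, whereas Lmnb2 stayed between 12.9 and 18.2 in the first 5 libraries and was 29.2 or more in the last 3.

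Vim had a slope of 0.07 (interval -0.05 to 0.19) and Lmna of 0.01 (interval -0.22 to 0.24), and neither was called. Nefm (0.01), Ina (-0.02), Synm (0.08) and Nefl (0.20) were not called either. Gfap went the other way, with a slope of -2.11 (SE 0.19, adjusted p = 0.000473). It measured 1.33, 114, 536 and 20.8 RPKM in HC2 wild types 2, 3, 5 and 6 and 9.96, 84.9, 2.47 and 328 in HC2 knockouts 1, 4, 7 and 8. Of 10 astrocyte markers, 8 had a called negative slope. Of 13 neuronal markers, 2 had a positive slope, Gap43 (0.73) and Snap25 (0.37), and 2 a negative one, Nsg2 (-0.35) and Mapt (-0.23). Of 10 oligodendrocyte lineage markers, 2 had a positive and 3 a negative slope, and of 10 stem and progenitor markers 1, Msi1, had a negative slope (-0.34). All 3 tested linkers had one as well, with Plec at -0.60. Of 15 envelope genes, 4 had a positive and 2 a negative slope, among them Tmpo (0.56) and Lbr (0.49), whose products bind B-type lamins or chromatin at the nuclear rim. The parts of astrocyte content and depth were not tested.

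The calls of the slope changed when some libraries were left out. Without HC2 wild type 2, at the top of the range, the slope of Lmnb2 was 0.35 with an adjusted p of 0.128, and 902 genes were called in place of 3985. Without HC2 knockout 8, at a cell cycle mean of 3.31, 2624 were called. Without HC2 knockout 4, Nefl was called at 0.27 (adjusted p = 0.02002). Without the 2 libraries farthest from the median cell cycle mean, HC2 wild type 2 and HC2 knockout 7, 0 members and 121 genes were called. The slopes were then 0.58 for Nes (adjusted p = 0.0747), 0.50 for Lmnb1 (0.190) and 0.32 for Lmnb2 (0.323), within 0.04 of those over all 8.

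**Figure D4:**
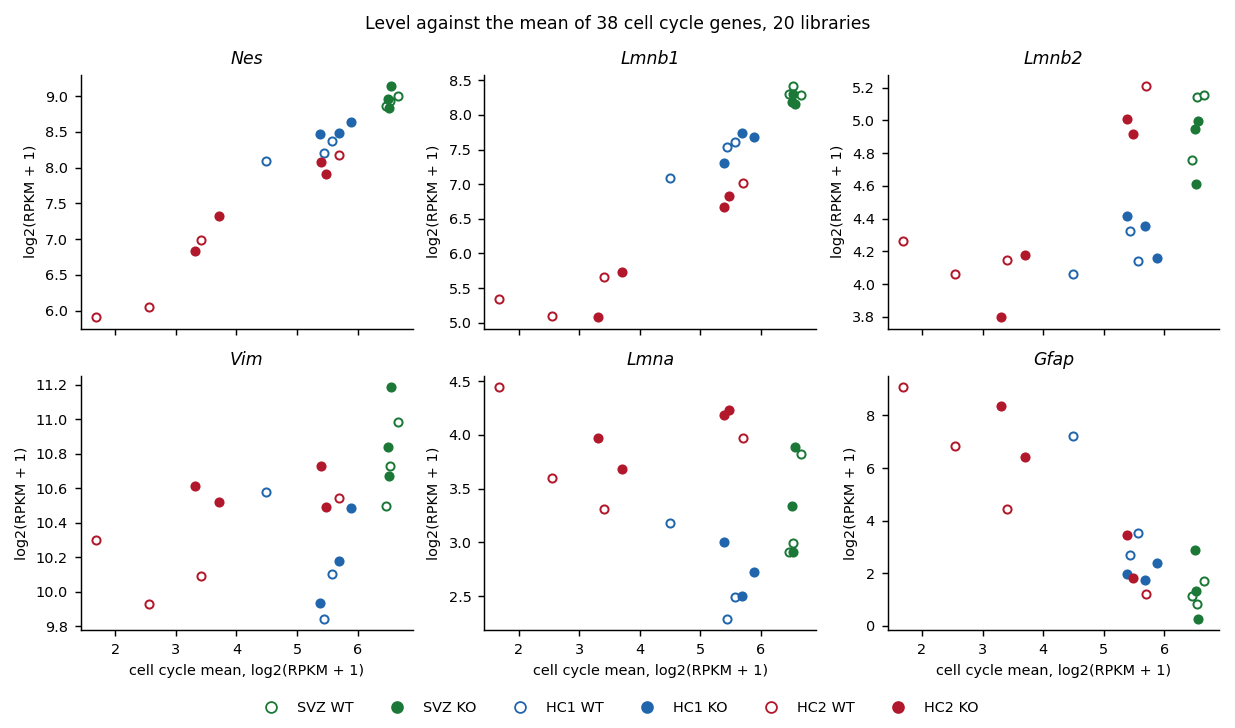
Level of Nes, Lmnb1, Lmnb2, Vim, Lmna and Gfap as log2(RPKM + 1) against the mean log2 level of 38 cell cycle genes in 20 libraries, coloured by region and sphere round, open for wild type and filled for Egfl7 knockout. In HC2 (slopes of 0.56 and 0.54) Nes and Lmnb1 rise with the cell cycle mean, Lmna has a slope of 0.01 and Gfap falls.

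Across all 20 libraries the genes most like Nes in pattern, among 11739 genes, were Sgol1 (Pearson r = 0.990), Smtn (0.989), Troap (0.988), Plk1 (0.987) and Foxm1 (0.986), computed on log2(RPKM + 1). Those most like Lmnb1 were E2f8 (0.991), Usp1 (0.990), Bora (0.989), Hmgb2 (0.988) and Hspd1 (0.988). For Nefl the closest were Trp53i11 (0.826), Casp8 (0.824), Itga4 (0.820), Mboat1 (0.816) and Polr3k (0.816). These are descriptions over libraries that share region, sphere round and depth, and each gene was picked as the highest of many. Around the group means r was 0.971 for Nes with Sgol1, 0.958 for Lmnb1 with E2f8 and 0.622 for Nefl with Trp53i11. Nes and Lmnb1 had r = 0.958 with each other, and Nefl and Nefm had r = 0.781. Lmna and Lmnb1 had r = -0.50 over 20 libraries and 0.03 around the group means.

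The last comparisons set Egfl7 knockout against wild type within each region and round. None of the 9 tested genes was called in SVZ, HC1 or HC2 (0 of 9 in each), where 0.0122%, 0.0122% and 0.0244% of all genes were called. At an unadjusted p under 0.05, 0 members passed, against 379, 646 and 644 of all genes. limma was the only tool run, since RPKM are not counts. The 2 differences between knockout effects, HC2 minus HC1 and SVZ minus HC2, also had 0 of 9 called, against 0.0244% and 0.0305% of all genes. At an unadjusted p under 0.05 these were 0 members, against 421 and 324 of all genes.

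The intervals were wide for Nes and Lmnb1 and narrower for Vim and Synm. In HC2, Nes averaged 195 ± 71.6 RPKM over the knockouts (SD, n = 4) against 134 ± 106 for wild type (SD, n = 4), a log2 difference of 0.76 (interval -0.02 to 1.53, adjusted p = 0.988). The groups overlapped, and the Nes difference was 1.22 without HC2 wild type 2, 0.51 without HC2 wild type 3 and 0.47 without HC2 wild type 5. All 38 cell cycle genes had a positive difference, knockout minus wild type, against 50.1% of all genes, with 0 called and a median of 1.21. That median was 2.03 without HC2 wild type 2 and 0.60 without HC2 wild type 5, with all 38 positive in both. The 38 genes are not independent observations of genotype. Their mean log2 level overlapped between the groups, at 1.68 to 5.70 in the HC2 wild types and 3.31 to 5.47 in the HC2 knockouts. The part of the cell cycle genes in the Nes difference was not tested. Vim averaged 1543 ± 118 RPKM in the HC2 knockouts against 1205 ± 225 in the wild types, a difference of 0.37 (interval -0.01 to 0.75, adjusted p = 0.988). Lmnb1 differed by 0.30 (interval -0.49 to 1.08) and Lmna by 0.19 (interval -0.39 to 0.77). With each library left out in turn these ran from 0.05 to 0.71 and from 0.02 to 0.39.

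In HC1, where the knockouts were male and the wild types female, the Nes groups did not overlap, with knockouts at 352 to 397 RPKM and wild types at 273 to 331. Such a gap was found for 1 of 9 members and 13.7% of all genes. The log2 difference was 0.30 (interval -0.59 to 1.19). All 38 cell cycle genes had a positive difference here as well, against 45.6% of all genes, with a median of 0.48 and 0 called. Without HC1 wild type 1, 30 of the 38 did, with a median of 0.16, and the Nes difference was 0.24. Nefm differed by -0.38 (interval -1.06 to 0.31), from -0.74 to -0.09 with single libraries left out, and Nefl by -0.18 (interval -0.92 to 0.56), with overlap. Between libraries labelled SVZ knockout and SVZ wild type, Synm did not overlap, at 1.53 to 1.83 against 1.11 to 1.41 RPKM, a difference of 0.22 (interval -0.06 to 0.51). It was 1 of 9 members with such a gap, against 7.76% of all genes. Nefl differed by 0.34 (interval -0.40 to 1.08), from 0.11 to 0.51 with single libraries left out, and Nes by 0.04 (interval -0.85 to 0.94). Unlike in HC1 and HC2, 15 of the 38 cell cycle genes had a positive difference in SVZ, with a median of -0.02. Of all genes, 47.1% had one there. In HC2 no member had groups without overlap, against 1.13% of all genes.

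**Figure D5:**
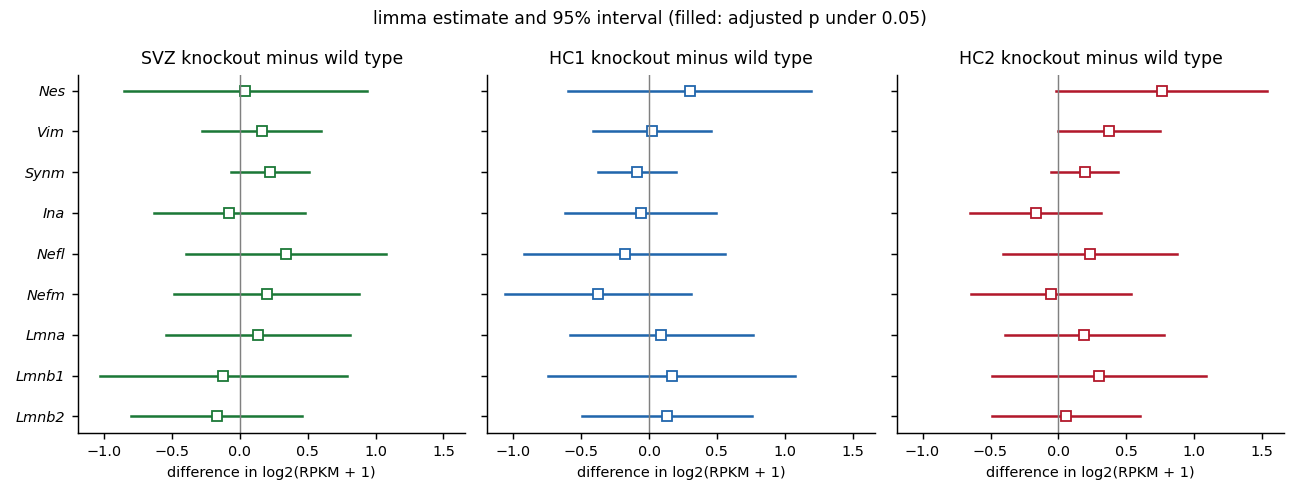
Difference in log2(RPKM + 1), knockout minus wild type by the labels, with its 95% interval for the 9 tested genes in SVZ, HC1 and HC2; open squares did not pass an adjusted p of 0.05. Every interval includes 0, and Nes (0.76) and Vim (0.37) in HC2 reach it only at their lower ends.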

How the data were processed

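Per the labels' protocols, Trizol RNA was cleared of ribosomal RNA, and stranded libraries were captured on mouse exons and sequenced as read pairs. The deposited values, total RPKM per gene on a linear scale per the file headers, were made by the authors. The submitters' processing notes name FastQC 0.11.5, DESeq2 and the build mm10 (GRCm38). The sources used here do not give the aligner, the counter or the use of strand. A blank was read as 0.

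A gene was kept if 3 or more of 20 libraries reached 0.5 RPKM (16403 genes). log2(RPKM + 1) was modelled in limma 3.58.1 (R 4.3.3) with 1 mean per group for 6 groups (eBayes with trend and robust), and the HC2 slope on 8 libraries, leaving the cell cycle list out of the test. The fits were tested on simulated data. Reads were recovered from the steps of low RPKM values, counted as whole within 0.15, a tolerance set after the values were seen. How the precision per gene depends on these relative depths was not tested, and p-values measure the spread between the libraries. The members and lists were chosen with earlier results of these data known. Named are the 10 members, Egfl7, Gfap, up to 3 called genes per list and direction, and the 5 genes most like Nes, Nefl and Lmnb1. Gap43 is also named where it was not called, as its direction went against its list. Predicted genes were left out of the likeness search by a pattern chosen afterwards. Alternatives changed the pseudocount, filter, scaling, library weights, groups fitted, libraries and replicate block.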

Additional observations from a re-analysis of the deposited data

How the results depend on the processing

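Over 54 member results and 801 alternative values, 709 kept their direction and side of the threshold, 39 lost a call, 7 gained one and 46 changed direction. Of the last, 0 concerned a gene called in the reported fit. Leaving out each library in turn gave 0 members called in each knockout comparison, with 2 to 5 genes of all called in SVZ, 0 to 2 in HC1 and 4 to 26 in HC2, and 3 to 7 and 4 to 8 for the differences between knockout effects. It gave 4 to 6 members and 4093 to 5228 genes for SVZ minus HC1, 5 to 6 and 8172 to 9423 for HC2 minus HC1, and 2 to 4 and 902 to 4156 for the HC2 slope. The genes called between SVZ knockouts and wild types were 1 with a pseudocount of 0.1 RPKM, 0 when only the groups compared were fitted and 9 with array weights. In HC1 they were 7 with no filter and 8 with array weights, and in HC2 7 with no filter. Libraries of the same replicate number showed no clear positive correlation of their deviations from the group means. The values were 0.007, -0.063 and -0.259 in SVZ and -0.047, -0.115 and -0.029 in HC1. With 3 libraries per group they cannot exclude a pairing. With the number as a replicate block and only the groups compared in the fit, 0 genes were called in SVZ and 0 in HC1, where the same fit without the block called 0 and 2. HC2 genotypes share no number, so no paired analysis was possible there. For SVZ minus HC1, members called were 2 and genes 2924 without both SVZ libraries whose Egfl7 went against the label, and 3 and 1158 between knockout groups. For HC2 minus HC1, 2 members were called between knockout groups. For the slope, 0 members and 121 genes were called without the 2 farthest libraries. The cause was not tested.

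Directions that changed all belong to differences that were not called. Without both discordant SVZ libraries, Nes differed by -0.0073 between SVZ genotypes and Ina by 0.13 between SVZ and HC1. With array weights, Nefm differed by 0.19 between HC2 genotypes and Ina by 0.0198 between SVZ and HC1. The Lmna slope was -0.0064 with a pseudocount of 0.1, -0.0269 after rescaling and -0.15 without the 2 farthest libraries, and the Nefm slope -0.0128 after rescaling and -0.0957 without those libraries. Over single left-out libraries, the SVZ genotype difference ran from -0.0416 to 0.114 for Nes, -0.396 to 0.0894 for Ina and -0.12 to 0.43 for Lmna. In HC1 it ran from -0.14 to 0.22 for Vim, -0.22 to 0.14 for Ina, -0.386 to 0.01997 for Nefl and -0.0918 to 0.352 for Lmna. In HC2 it ran from -0.0060 to 0.428 for Nefl, -0.25 to 0.10 for Nefm and -0.12 to 0.32 for Lmnb2. SVZ minus HC1 ran from -0.165 to 0.0808 for Ina, and HC2 minus HC1 from -0.0756 to 0.147 for Nefl. The slope ran from -0.0235 to 0.121 for Vim, -0.118 to 0.0452 for Ina, -0.190 to 0.0698 for Nefm and -0.0581 to 0.164 for Lmna. Nefh was below the level that could be tested.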
